A study of Homo sapiens with 12 samples.

Results

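The genes of the constitutive proteasome were followed through 12 Affymetrix arrays of a leukaemia line and its drug-resistant subline. They were chosen by name: all rows of the deposited table whose gene symbol begins with PSMA, PSMB, PSMC, PSMD, PSME, PSMF or PSMG were taken, and the inducible subunits PSMB8, PSMB9 and PSMB10 were left out. With the brightest row standing for each gene, 44 of the 18417 genes tested qualified. Of these, 42 encode subunits, regulators or assembly factors, and 2 share only the letters: PSMC3IP, a factor of meiotic recombination, and PSME3IP1, a nuclear protein that binds PSME3. PSMC5, PSMD7 and PSMD13 were not analysed here.

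KA is K562/ADR, a subline of K562 made resistant to the anthracycline adriamycin (doxorubicin) and kept in 50 nM of it, and KS is the parental K562 line, established from a chronic myeloid leukaemia. Each line was measured after 72 hours with 5 nM decitabine and untreated, which gave treated KA, untreated KA, treated KS and untreated KS with 3 arrays each. Decitabine, a cytosine nucleoside analogue, is a hypomethylating agent: once in DNA it captures the DNA methyltransferases. The study asked how decitabine acts on multidrug resistance mediated by P-glycoprotein. KA differs from KS both in its selection and in the adriamycin of its medium, so line and drug exposure cannot be told apart, and each line is 1 culture history. What the untreated cells were given, and whether adriamycin stayed on during decitabine, is not in the labels. Nor is it stated that replicates are independent cultures, and the p-values then describe only how far these arrays scatter. The number of arrays limits the precision.

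The proteasome degrades proteins that carry ubiquitin chains. Its core particle is a barrel of stacked alpha and beta rings with the proteolytic sites inside, and its regulatory particle caps the barrel: a base with a ring of ATPases (PSMC genes) unfolds substrates, and a lid holds the deubiquitinase PSMD14 that removes their ubiquitin. Other activators can replace the regulatory particle (PSME genes), chaperones assemble the parts, and the transcription factor NFE2L1 raises subunit genes together when proteasome activity is lacking. Inhibitors of the proteasome are drugs for cancers of the blood.

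All values are log2 intensities, and changes are log2 differences with their standard error (SE). A gene is called higher or lower where limma's Benjamini-Hochberg adjusted p, over all 18417 genes, is under 0.05. Where arrays are said not to overlap, that is a description, and the share of all genes without overlap was not counted. The largest first quartile of any array was 3.39, and a mean at or below it is not shown to exceed background. PSMA8, the testis form of an alpha subunit, and PSMB11, the thymus form of a catalytic subunit, lay under that bound in all 12 arrays (at most 2.13 and 3.17), and the other 42 genes had means above it. The median log2 intensity of an array was 4.96 to 5.01, and replicate arrays correlated with r of 0.990 to 0.995. The erythroid leukaemia markers fitted the label: 6 of 7 were measured, and GATA1 read 8.81 to 9.21 in the 12 arrays. Some markers of other cell types were also high in all groups (KRT8, 10.27 to 10.73). Above the background bound were all 4 monocyte markers, 4 of 5 epithelial, 4 of 5 lymphoid and 6 of 7 fibroblast and endothelial ones; CDH1, MS4A1 and DCN lay under it. COL1A1 read 5.68 to 6.42 and CD79A of B cells 4.51 to 5.12. In bulk RNA, fewer cells of a type and less RNA per cell cannot be told apart.

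Untreated KS replicate 3 stood apart from the rest of its group. Over all genes, its differences from the mean of the other arrays of its group had an SD of 0.225, against 0.137 to 0.189 for the other 11 arrays. Each array was also placed on the step from untreated to treated arrays of its line, over the genes called with decitabine in the other line, where 0% is the untreated and 100% the treated mean of the remaining arrays. Untreated KS replicate 3 lay at 30.6% of the step, against -16.0% and -13.1% for the other untreated KS arrays and 1.79% to 7.48% for untreated KA. Treated KS replicate 1 lay at 85.9%, against 105% for the other treated KS arrays and 92.4% to 99.5% for treated KA; its SD of 0.169 was within the range of the others. Leaving out these 2 arrays together was chosen after the data were seen. Where this omission changes the count of called genes of a role or list in a comparison that uses KS, both counts are given, and each named gene whose call it ended is marked.

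With decitabine, KS cells had lower transcript levels of much of the proteasome: 20 of 44 genes were called lower and 2 higher. Among all genes 15.7% were called lower and 14.6% higher. The median change of the 44 genes was -0.19, beside -0.01 over all genes. Without the 2 arrays the counts were 20 lower and 1 higher and the median -0.22. The changes were small, at most 1.67-fold.

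The regulatory particle held most of the lower calls in KS, 11 of 14 with a median change of -0.31, beside 6 of 16 in the core particle with a median of -0.18. Without the 2 arrays these counts were 12 of 14 and 5 of 16. All 28 core and regulatory subunits above the background bound had a negative change in KS, and 17 of them were called, where 19.4% of all genes above the bound were called lower. Over all genes 9438 of 18417 changes were negative. Without untreated KS replicate 3 alone, 27 of the 28 were negative and 18 were called.

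In the base, PSMD1, the large scaffold on which ubiquitin receptors dock, had the widest change of any subunit in KS. It read 8.73, 8.55 and 8.47 in treated KS, against 9.24, 9.34 and 9.10 in untreated KS. The 3 treated arrays all lay below the 3 untreated ones, and PSMD1 fell by 0.65 ± 0.09 (SE; limma adjusted p = 0.000108), 1.56-fold. Its partner scaffold PSMD2 fell by 0.27 ± 0.08 (limma adjusted p = 0.015), while the ubiquitin receptor PSMD4 differed by -0.10 ± 0.10 and was not called.

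Of the 5 ATPases measured, PSMC4, PSMC3 and PSMC1 were called lower in KS, and PSMC6 too without the 2 arrays. PSMC4 read 9.57, 9.52 and 9.49 in treated KS, against 10.05, 10.00 and 9.98 in untreated KS, and it fell by 0.48 ± 0.06 (limma adjusted p = 8.95e-05). The groups stood clear of each other, with little spread inside either. PSMC3 fell by 0.38 ± 0.07 and PSMC1 by 0.32 ± 0.07, while PSMC2 (-0.21 ± 0.12) and PSMC6 (-0.19 ± 0.10) overlapped between the groups. PSMC1 and PSMC6 have near-identical copies in the genome and 2 rows each, so which copy their rows read is uncertain.

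All 6 lid subunits with a PSMD symbol that were measured were called lower in KS, with changes between -0.52 and -0.28 and a median of -0.33. PSMD3, a structural lid subunit, read 9.48, 9.40 and 9.20 in treated KS, against 9.88, 9.93 and 9.83 in untreated KS, and fell by 0.52 ± 0.08 (limma adjusted p = 0.000217). PSMD14, the deubiquitinase, read 9.40, 9.30 and 9.23 in treated KS, against 9.71, 9.79 and 9.51 in untreated KS, and fell by 0.36 ± 0.08 (limma adjusted p = 0.00459). In both genes the treated arrays lay below all untreated ones, and for PSMD14 untreated replicate 3 was the one nearest to them. Among the other lid subunits, PSMD11 fell by 0.41 ± 0.07 and PSMD8 by 0.28 ± 0.06. The lid count was 4 to 6 over 20 alternative settings, and 4 where treated KS replicate 2 or untreated KS replicate 2 was left out.

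In the alpha ring, the outer gate of the barrel, 3 of 8 genes were called lower in KS. PSMA3 read 8.29, 8.08 and 8.14 in treated KS, against 8.67, 8.85 and 8.49 in untreated KS, and fell by 0.50 ± 0.10 (limma adjusted p = 0.00251). PSMA7 fell by 0.45 ± 0.06 (limma adjusted p = 0.000105) and PSMA6 by 0.25 ± 0.08 (limma adjusted p = 0.031). The treated and untreated arrays did not overlap in these 3 genes. The alpha subunits PSMA1 and PSMA5 differed by -0.11 each, with overlapping arrays.

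In the beta rings, the structural subunit PSMB2 read 10.20, 10.15 and 10.11 in treated KS, against 10.70, 10.63 and 10.58 in untreated KS, and fell by 0.49 ± 0.07 (limma adjusted p = 0.000146). The 3 catalytic subunits behaved unequally. PSMB6, with caspase-like activity, read 9.67, 9.69 and 9.65 in treated KS, against 10.12, 10.03 and 9.96 in untreated KS, and fell by 0.37 ± 0.06 (limma adjusted p = 0.000668). PSMB7, with trypsin-like activity, read 9.89, 9.94 and 9.84 in treated KS, against 10.01, 10.02 and 10.07 in untreated KS; its groups did not overlap, but the change of -0.14 ± 0.06 was not called (limma adjusted p = 0.106). PSMB5, with chymotrypsin-like activity and the main target of bortezomib, read 9.66, 9.61 and 9.56 in treated KS, against 9.65, 9.55 and 9.86 in untreated KS, and its change of -0.08 ± 0.15 was not called (limma adjusted p = 0.752). Its arrays overlapped and its SE was larger than those of PSMB6 and PSMB7. That PSMB6 changed more than the other two was not tested. PSMB3, a structural subunit, was called at an adjusted p of 0.0484 by limma (-0.20 ± 0.07), a call lost in 15 of 20 alternative settings, those without the 2 arrays included.

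The activators went in both directions in KS. PSME3, the nuclear activator of the core particle, read 9.69, 9.52 and 9.63 in treated KS, against 10.39, 10.46 and 10.21 in untreated KS, and fell by 0.74 ± 0.08 (limma adjusted p = 2.31e-05), 1.67-fold and the widest change of the 44 genes in KS. PSME1, which forms the interferon-inducible activator with PSME2, read 8.31, 8.45 and 8.35 in treated KS, against 7.95, 7.86 and 7.97 in untreated KS, and rose by 0.44 ± 0.06 (limma adjusted p = 0.000187), 1.36-fold. Neither gene's groups overlapped.

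Its partner PSME2 read 7.88, 8.04 and 7.93 in treated KS, against 8.10, 8.06 and 7.89 in untreated KS, with overlapping arrays and no call (-0.06 ± 0.09, limma adjusted p = 0.672). PSME4, an activator known from DNA repair and spermatogenesis, read 9.49, 9.48 and 9.52 in treated KS, against 9.30, 9.33 and 9.13 in untreated KS. It rose by 0.24 ± 0.07 (limma adjusted p = 0.0152); without untreated KS replicate 3, its lowest array, the change was 0.18 and not called (limma adjusted p = 0.0516), nor was it called without the 2 arrays (limma adjusted p = 0.087). The inhibitor PSMF1 (0.07 ± 0.06) was not called in KS.

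Assembly factors were mixed in KS. PSMG1, a chaperone of alpha ring assembly, fell by 0.45 ± 0.07 (limma adjusted p = 0.000333), and PSMD9, a chaperone of the base, by 0.34 ± 0.08 (limma adjusted p = 0.00492). PSMG1's dimer partner PSMG2 (limma adjusted p = 0.982), PSMG3, PSMG4, PSMD5 and PSMD10 were not called. PSMC3IP (-0.02) and PSME3IP1 (0.06), which are no proteasome factors, were not called either.

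**Figure D1:**
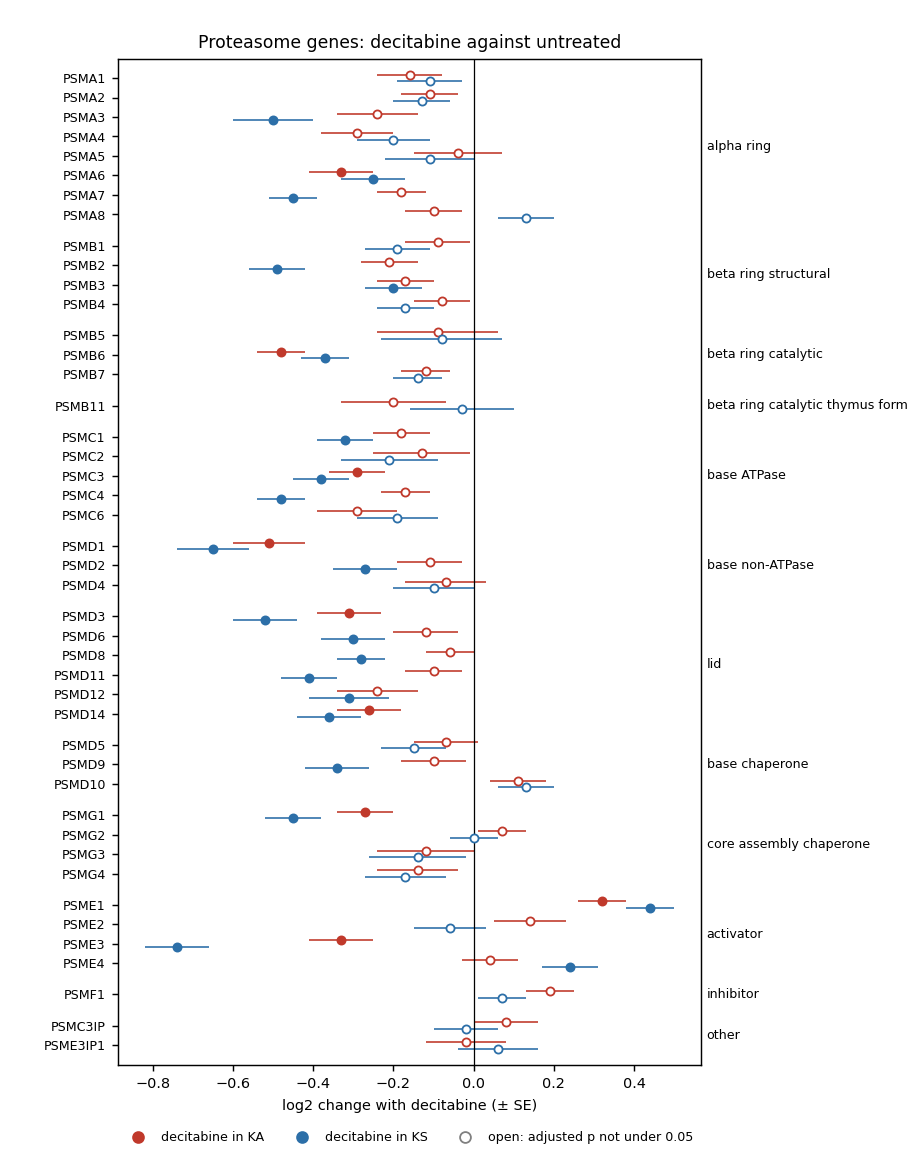
Log2 change with decitabine of each of the 44 genes, grouped by role, in KA (red) and KS (blue); points are limma estimates, bars are ± SE, and filled points have an adjusted p under 0.05. Most points lie left of 0 in both lines, all 6 of these lid subunits are filled in KS, and PSME1 is filled on the right in both.

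In KA, decitabine was followed by fewer calls: 8 of the 44 genes were called lower and 1 higher. Among all genes 4.96% were called lower and 9.66% higher. The median change of the 44 genes was -0.12, beside -0.02 over all genes. All 28 core and regulatory subunits above the background bound again had a negative change, and 6 of them were called, where 6.78% of all genes above the bound were called lower. Over all genes 9967 of 18417 changes were negative. With quantile normalization 27 of the 28 were negative in either line.

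The lower count in KA was sensitive to single arrays: it was 4 without treated KA replicate 1, treated KA replicate 2 or untreated KA replicate 1, and 5 without treated KA replicate 3, untreated KA replicate 2 or untreated KA replicate 3. Of the 9 calls in KA, those of PSMD1, PSMB6 and PSME1 were kept in all 20 alternative settings.

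PSMD1 read 8.64, 8.48 and 8.65 in treated KA, against 9.11, 9.06 and 9.13 in untreated KA, and fell by 0.51 ± 0.09 (limma adjusted p = 0.00218), 1.42-fold. PSMB6 read 9.48, 9.53 and 9.54 in treated KA, against 10.00, 9.98 and 10.02 in untreated KA, and fell by 0.48 ± 0.06 (limma adjusted p = 0.000528), 1.40-fold. PSME1 read 7.85, 7.84 and 7.86 in treated KA, against 7.50, 7.51 and 7.57 in untreated KA, and rose by 0.32 ± 0.06 (limma adjusted p = 0.00548), 1.25-fold. In all 3 genes the arrays within a group lay close together and the groups did not overlap.

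PSMA6, an alpha subunit, read 8.89, 8.90 and 9.01 in treated KA, against 9.32, 9.17 and 9.28 in untreated KA, and fell by 0.33 ± 0.08 (limma adjusted p = 0.0156). PSMD3 read 9.43, 9.40 and 9.44 in treated KA, against 9.77, 9.69 and 9.74 in untreated KA, and fell by 0.31 ± 0.08 (limma adjusted p = 0.0177). PSME3 read 9.76, 9.68 and 9.68 in treated KA, against 9.99, 10.02 and 10.10 in untreated KA, and fell by 0.33 ± 0.08 (limma adjusted p = 0.0154). The treated arrays of these genes all lay below the untreated ones, yet the calls were lost without single KA arrays, with adjusted p up to 0.0616, 0.0631 and 0.0569 by limma.

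The remaining lower calls in KA were the ATPase PSMC3 (-0.29 ± 0.07), the chaperone PSMG1 (-0.27 ± 0.07) and the deubiquitinase PSMD14. PSMD14 read 9.57, 9.55 and 9.55 in treated KA, against 9.74, 9.90 and 9.82 in untreated KA, with no overlap. Its fall of 0.26 ± 0.08 passed narrowly (limma adjusted p = 0.0476) and did not pass in 12 of 20 alternative settings.

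PSMB7 read 9.88, 9.85 and 9.80 in treated KA, against 9.97, 9.99 and 9.95 in untreated KA (-0.12 ± 0.06, limma adjusted p = 0.204). PSMB5 read 9.82, 9.86 and 9.23 in treated KA, against 9.53, 9.84 and 9.80 in untreated KA (-0.09 ± 0.15, limma adjusted p = 0.746). PSMB7's groups stood apart by a small step, while PSMB5's overlapped, with 1 low array in each.

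PSME2 read 7.79, 7.88 and 8.02 in treated KA, against 7.62, 7.82 and 7.85 in untreated KA (0.14 ± 0.09, limma adjusted p = 0.348). PSME4 read 9.40, 9.32 and 9.31 in treated KA, against 9.28, 9.30 and 9.33 in untreated KA (0.04 ± 0.07, limma adjusted p = 0.752). Both overlapped between the groups. PSMF1 had a positive change of 0.19 ± 0.06 in KA that was not called (limma adjusted p = 0.0546).

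**Figure D2:**
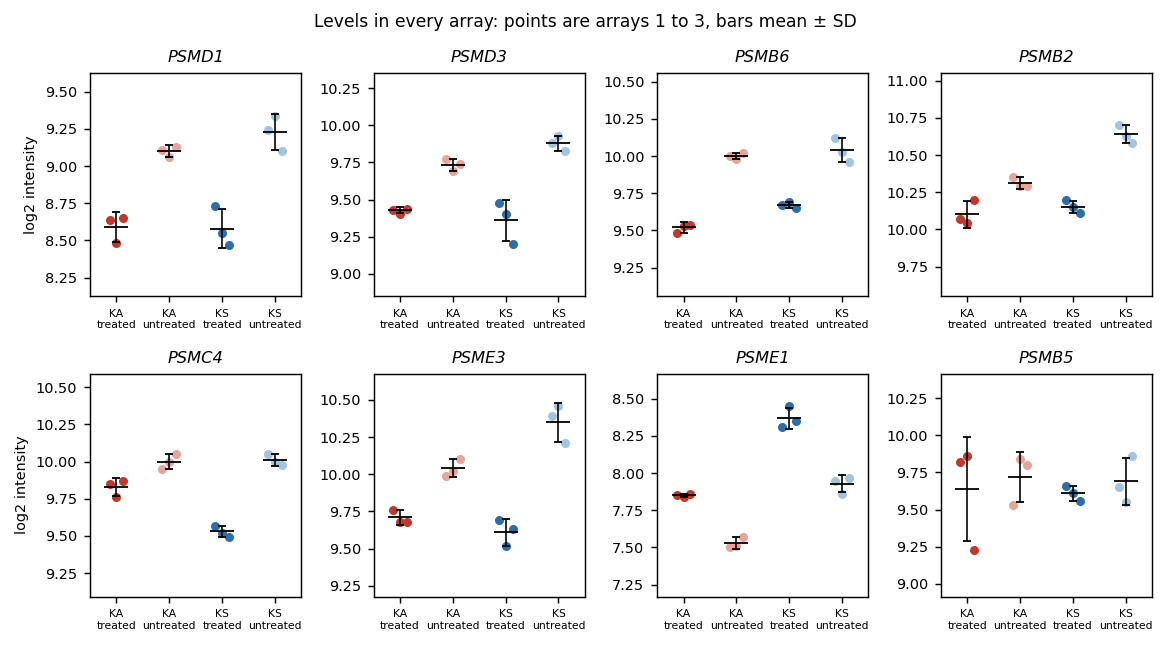
Log2 intensity (vertical axis, the same span of 1.5 in each panel) of 8 proteasome genes in every array of treated KA, untreated KA, treated KS and untreated KS; points are single arrays and bars the mean ± SD of 3. Treated arrays lie below untreated ones in both lines for PSMD1, PSMD3, PSMB6, PSMB2, PSMC4 and PSME3, above them for PSME1, and among them for PSMB5.

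The decitabine changes of KA and of KS were computed from different arrays. Their calls rest on 1 spread per gene estimated from all 12 arrays, so they are not independent. Leaving out any treated KS array ended the call of PSMD14 in KA. The 8 genes called lower in KA were PSMA6, PSMB6, PSMC3, PSMD1, PSMD3, PSMD14, PSME3 and PSMG1, and all 8 were also called lower in KS, which is the whole of the KA list and 40.0% of the 20 genes of the KS list. Of all genes, 15.7% were called lower in KS. How many of all genes called lower in KA were also lower in KS was not counted, so the overlap is not shown to be particular to these genes. PSME1 was the 1 gene called higher in both. Across the 44 genes, the change in KA and the change in KS correlated at r = 0.78 (Spearman's rho = 0.76), beside r = 0.62 (rho = 0.48) across all 18417 genes. Across the 42 genes above the background bound r was 0.81 (rho = 0.79). No such value was computed for all genes above the bound. These are descriptions across genes, which are not independent of each other. The change was larger in size in KS for 32 of the 42 genes (76.2%), and for 58.9% of all genes.

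That 12 genes were called lower in KS and not in KA does not show that the lines differ. The difference itself, the change in KA minus the change in KS, was called for 1 of the 44 genes, where 4.60% of all genes were called higher and 2.14% lower. That gene was PSME3, whose fall was 0.33 in KA and 0.74 in KS, a difference of 0.41 ± 0.11 (limma adjusted p = 0.046). The call was lost in 11 of 19 alternative settings, among them the omission of any 1 of the 6 KA arrays, and adjusted p ranged from 0.00522 to 0.105 by limma. Next came PSMC4 (0.31 ± 0.09, limma adjusted p = 0.0544), PSMD11 (0.31 ± 0.10, limma adjusted p = 0.0741) and PSMA7 (0.27 ± 0.09, limma adjusted p = 0.0821), which did not pass. Without untreated KS replicate 3, and likewise without the 2 arrays, 3 genes passed.

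Promoters of the genes were read from the RefSeq table of GRCh38.p14, 250 bases before to 50 after each gene's start; 38 of the 44 genes matched an entry. TGACNNNGC, the core letters of the antioxidant response element that NFE2L1 and NFE2L2 bind with small MAF proteins, was searched on both strands. It stood in 12 of the 38 promoters (31.6%), beside 13.6% of all 27305 promoters in the table and 14.6% of the 13770 promoters of protein-coding genes tested. By call in KS, 7 of the 18 promoters of genes called lower held it, 2 of 2 of genes called higher (PSME1 and PSME4) and 3 of 18 of genes not called. CCAAT, the letters bound by NF-Y, stood in 18 of the 38 (47.4%), beside 35.7% and 36.4%. The promoters held a median of 22 CG dinucleotides, the sites of DNA methylation, beside 23 in those of the tested protein-coding genes. A match is a description of letters, not a bound site. 5 promoters are shown as examples. PSMD1, PSMD3 and PSMC4 fell in KS, and each holds a match. PSME3 fell most there and holds none, and PSME1 rose in both lines and holds a match. The examples do not stand for all genes that fell. PSMA3 (-0.50) and PSMB2 (-0.49) fell in KS about as much as PSMC4 (-0.48) and hold no match, and PSMB6 has no entry. All 5 promoters shown lie on the plus strand, and capitals mark TGACNNNGC on either strand.
PSMD1, chr2:231056617-231056916: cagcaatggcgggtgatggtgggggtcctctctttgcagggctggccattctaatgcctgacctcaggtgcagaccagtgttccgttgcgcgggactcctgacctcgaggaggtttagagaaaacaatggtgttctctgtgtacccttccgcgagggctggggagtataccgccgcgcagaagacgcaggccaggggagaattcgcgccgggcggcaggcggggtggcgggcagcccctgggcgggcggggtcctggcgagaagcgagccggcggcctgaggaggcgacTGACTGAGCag
PSMD3, chr17:39980557-39980856: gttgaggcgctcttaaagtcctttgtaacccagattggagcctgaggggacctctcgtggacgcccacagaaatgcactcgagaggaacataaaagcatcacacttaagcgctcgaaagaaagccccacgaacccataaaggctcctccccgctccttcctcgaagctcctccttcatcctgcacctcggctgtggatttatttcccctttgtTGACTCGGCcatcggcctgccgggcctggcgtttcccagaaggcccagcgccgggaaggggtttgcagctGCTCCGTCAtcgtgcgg
PSMC4, chr19:39970915-39971214: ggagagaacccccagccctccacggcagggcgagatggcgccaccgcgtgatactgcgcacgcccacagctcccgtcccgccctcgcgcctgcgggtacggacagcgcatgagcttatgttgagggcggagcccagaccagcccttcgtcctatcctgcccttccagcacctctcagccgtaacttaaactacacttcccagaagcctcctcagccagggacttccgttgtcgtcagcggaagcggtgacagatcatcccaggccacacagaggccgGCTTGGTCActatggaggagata
PSME3, chr17:42833147-42833446: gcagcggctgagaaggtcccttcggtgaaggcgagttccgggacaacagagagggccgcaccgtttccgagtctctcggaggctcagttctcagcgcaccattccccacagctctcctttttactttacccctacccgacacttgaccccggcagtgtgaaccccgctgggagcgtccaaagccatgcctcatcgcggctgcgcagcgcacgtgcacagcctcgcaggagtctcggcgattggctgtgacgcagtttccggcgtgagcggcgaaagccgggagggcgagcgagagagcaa
PSME1, chr14:24135944-24136243: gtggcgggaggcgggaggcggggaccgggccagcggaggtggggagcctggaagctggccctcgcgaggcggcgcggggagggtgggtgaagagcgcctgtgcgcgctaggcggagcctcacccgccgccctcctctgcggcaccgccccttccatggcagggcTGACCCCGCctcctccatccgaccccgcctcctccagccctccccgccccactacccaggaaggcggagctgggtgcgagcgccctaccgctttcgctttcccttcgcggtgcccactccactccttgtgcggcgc
In PSMD1 the match begins 40 bases after the start; PSMD3 has 1 on each side of the start, at -37 and 34; in PSMC4 it begins at 28 and in PSME1 at -86. In PSME3, CCAAT stands once, on the minus strand as attgg.

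Untreated KA differed from untreated KS in single subunits, in both directions: 5 of the 44 genes were called higher in KA and 11 lower. The share called higher, 11.4%, is near the 11.6% of all genes. Called lower were 25.0%, where 14.1% of all genes were. The median difference of the 44 genes was -0.07, beside 0.02 over all genes. Without the 2 arrays the counts were 5 and 10. The genes called higher were the ATPases PSMC3 and PSMC2, the alpha subunit PSMA1, the lid subunit PSMD12 and the base chaperone PSMD10.

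PSMC3 was the most different. It read 8.82, 8.80 and 8.79 in untreated KA, against 8.26, 8.21 and 8.06 in untreated KS, and was 0.63 ± 0.07 higher in KA (limma adjusted p = 2.87e-05), 1.54-fold. PSMC2 read 10.46, 10.28 and 10.56 in untreated KA, against 9.80, 9.82 and 10.02 in untreated KS (0.56 ± 0.12, limma adjusted p = 0.00358). In both genes every KA array lay above every KS array.

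PSMA1 read 10.23, 10.20 and 10.43 in untreated KA, against 9.71, 9.81 and 9.72 in untreated KS (0.54 ± 0.08, limma adjusted p = 0.000209). PSMD12 read 8.57, 8.49 and 8.58 in untreated KA, against 8.10, 8.26 and 8.05 in untreated KS (0.41 ± 0.10, limma adjusted p = 0.00583). Neither gene's lines overlapped. PSMD10, also known as gankyrin, was 0.29 ± 0.07 higher in KA.

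Among the genes called lower in KA, the base scaffold PSMD2 read 8.60, 8.56 and 8.69 in untreated KA, against 9.10, 9.23 and 8.97 in untreated KS (-0.48 ± 0.08, limma adjusted p = 0.000383). The alpha subunit PSMA5 read 8.11, 8.47 and 8.41 in untreated KA, against 8.76, 8.96 and 8.66 in untreated KS (-0.46 ± 0.11, limma adjusted p = 0.0055). PSMD2 stood clear in every array, and PSMA5 was more scattered within KA.

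Of the activators, PSME1 (-0.40 ± 0.06, limma adjusted p = 0.000449) and PSME3 (-0.31 ± 0.08, limma adjusted p = 0.00968) were lower in untreated KA, while PSME2 (-0.25 ± 0.09, limma adjusted p = 0.0563) and PSME4 (0.05 ± 0.07) were not called. The other 7 lower calls, PSMB2, PSMD11, PSMD9, PSMD6, PSMA2, PSMA7 and PSMF1, lay between -0.33 and -0.19. PSMA7 and PSMF1 lost their call in 10 and 8 of 20 alternative settings, those without the 2 arrays included. The catalytic subunits PSMB5 (0.04 ± 0.15), PSMB6 (-0.04 ± 0.06) and PSMB7 (-0.06 ± 0.06) and the deubiquitinase PSMD14 (0.15 ± 0.08) were not called.

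**Figure D3:**
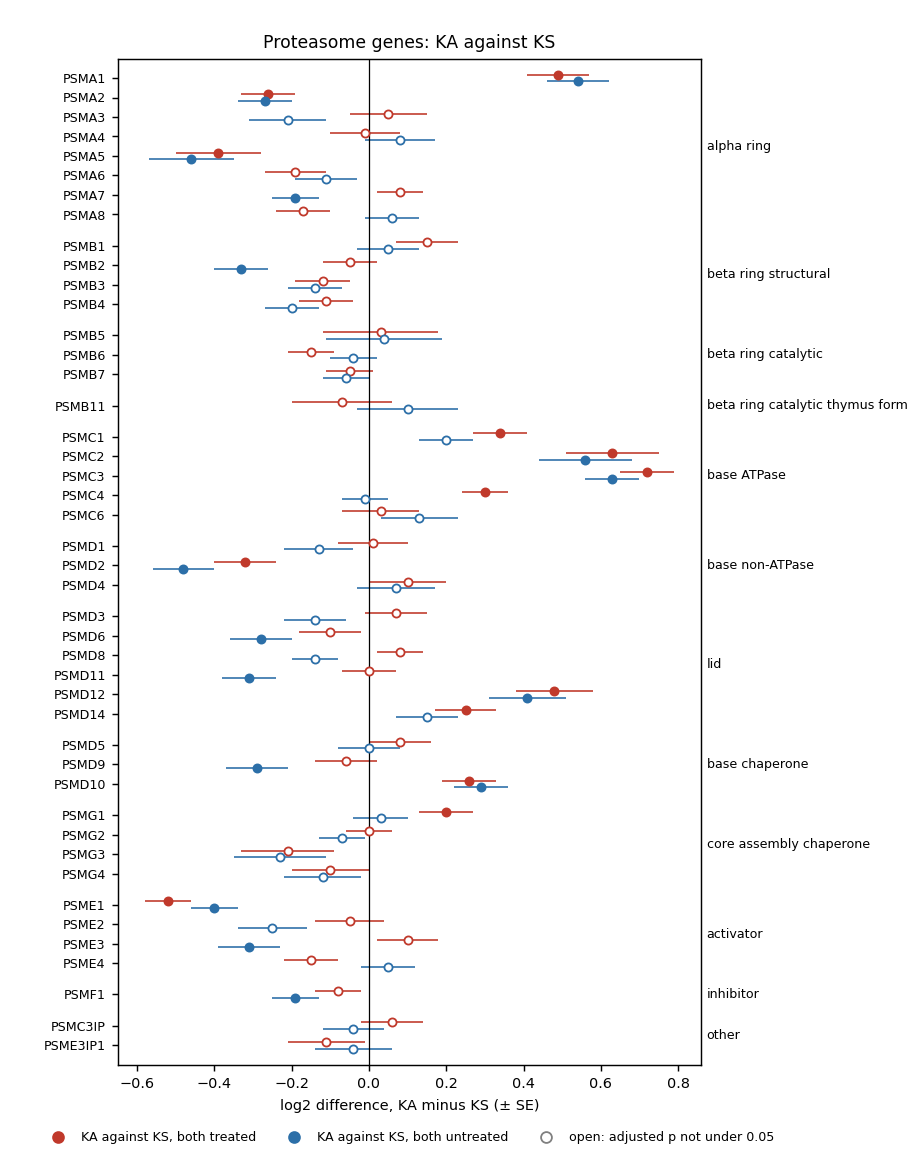
Log2 difference between KA and KS (KA minus KS) of each of the 44 genes, grouped by role, with both lines treated (red) and both untreated (blue); points are limma estimates, bars are ± SE, and filled points have an adjusted p under 0.05. PSMC2, PSMC3, PSMA1, PSMD12 and PSMD10 are filled on the right in both comparisons, and PSMA2, PSMA5, PSMD2 and PSME1 on the left in both.

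Treated KA and treated KS were also compared; these arrays enter the decitabine comparisons too, so the values are given side by side. Of the 44 genes, 9 (20.5%) were called higher in treated KA and 4 (9.09%) lower, where 15.1% and 11.9% of all genes were called. The median difference was 0.00. Without the 2 KS arrays the counts were again 9 and 4. PSMC3 read 8.49, 8.57 and 8.50 in treated KA, against 7.88, 7.79 and 7.73 in treated KS, and was 0.72 ± 0.07 higher (limma adjusted p = 7.4e-06), 1.65-fold. PSMC2 read 10.41, 10.36 and 10.13 in treated KA, against 9.86, 9.43 and 9.71 in treated KS (0.63 ± 0.12, limma adjusted p = 0.00133). In both ATPases the lines stood apart in every array.

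PSMA1 read 10.11, 10.07 and 10.19 in treated KA, against 9.74, 9.58 and 9.59 in treated KS (0.49 ± 0.08, limma adjusted p = 0.000416). PSMD12 read 8.45, 8.19 and 8.27 in treated KA, against 7.96, 7.65 and 7.88 in treated KS (0.48 ± 0.10, limma adjusted p = 0.00203). Neither overlapped. With PSMC1 (0.34 ± 0.07) and PSMC4 (0.30 ± 0.06), 4 of the 5 ATPases measured were called higher in treated KA. That count stayed at 4 in all 20 alternative settings. Between untreated lines it was 2 of 5, where PSMC1 was 0.20 ± 0.07 higher and not called (limma adjusted p = 0.0679). The difference of responses was called for 0 of the 5 (0 to 1 over 19 alternative settings). The counts therefore do not show that decitabine changed the gap between the lines.

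PSME1 read 7.85, 7.84 and 7.86 in treated KA, against 8.31, 8.45 and 8.35 in treated KS, and was 0.52 ± 0.06 lower (limma adjusted p = 4.72e-05). PSMA5 read 8.34, 8.23 and 8.30 in treated KA, against 8.74, 8.76 and 8.54 in treated KS (-0.39 ± 0.11, limma adjusted p = 0.0138). Neither overlapped; the PSMA5 call was lost without treated KA replicate 2 or treated KS replicate 2. PSMD2 (-0.32 ± 0.08) and PSMA2 (-0.26 ± 0.07) were the other genes lower in treated KA. PSMD10, PSMD14 and PSMG1 were higher by 0.20 to 0.26; PSMG1 and PSMD14 lost their call in 12 and 6 of 20 alternative settings. Between treated lines PSME3 (0.10 ± 0.08, limma adjusted p = 0.432), PSME2 (-0.05 ± 0.09), PSME4 (-0.15 ± 0.07), PSMB5 (0.03 ± 0.15), PSMB6 (-0.15 ± 0.06) and PSMB7 (-0.05 ± 0.06) were not called.

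Genes next to the proteasome genes that were higher in untreated KA were often higher too. Over the 10 nearest measured genes in the gene order of GRCh38.p14, a comparison added after the data were seen, the median difference was 0.57 around PSMD12 on chromosome 17, 0.46 around PSMC2 on chromosome 7 and 0.29 around PSMC3 on chromosome 11. Of these neighbours 6, 7 and 6 were called higher in KA. Over the 5 genes called higher, 24 of 50 neighbours (48.0%) were called higher, where the share of all genes was 11.6%. Around PSMA1, also on chromosome 11, the median was 0.18 with 4 called higher, and around PSMD10 on chromosome X it was 0.06 with 1 called higher. Over the 11 genes called lower, 18 of 110 neighbours (16.4%) were called lower, near the 14.1% of all genes. The most were around PSMD2 on chromosome 3 and PSMA5 on chromosome 1, with medians of -0.08 and -0.15 and 4 neighbours called lower in each. PSMD11, PSMD6, PSMA7 and PSME1 had 0 neighbours called lower. Around PSME1 on chromosome 14 the median was 0.00. Around the 28 genes that were not called, 9.39% of neighbours were called higher and 14.1% lower, yet some of these genes also had shifted neighbours: the median was 0.39 around PSMC1 with 5 called higher, 0.20 around PSMD5 with 4 higher, -0.15 around PSMD3 with 5 lower and -0.30 around PSMG4 with 4 lower. For PSMC1 and PSMC6 the neighbours are those of the named gene, while which copy their rows read is uncertain. The part of the neighbourhood in these differences was not tested.

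**Figure D4:**
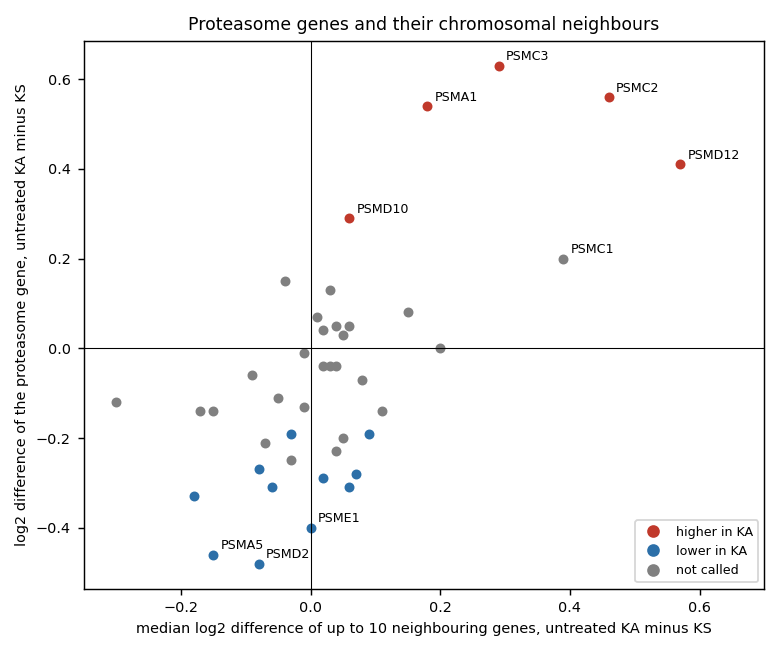
Log2 difference of each of 42 proteasome genes above the background bound (vertical axis) against the median log2 difference of up to 10 neighbouring genes (horizontal axis), untreated KA minus untreated KS; colours give limma's call. PSMC3, PSMC2 and PSMD12 lie at the upper right, with neighbours at 0.29 to 0.57, and PSME1 lies low with neighbours at 0.00.

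Genes that work with the proteasome were taken from lists. Their counts stand beside the shares of all genes given above: with decitabine 4.96% lower and 9.66% higher in KA, 15.7% lower and 14.6% higher in KS, and between untreated lines 11.6% higher and 14.1% lower. Of 14 proteasome-associated genes, 1 (7.14%) was called lower with decitabine in KA (median -0.09), and 7 lower (50.0%) and 1 higher (7.14%) in KS (median -0.23). The share in KA is near that of all genes. AKIRIN2, which carries proteasomes into the nucleus, was lower in both, with -0.24 ± 0.07 in KA and -0.36 ± 0.07 in KS; the call in KA (limma adjusted p = 0.0418) was lost in 9 of 20 alternative settings. In KS the ubiquitin-binding ZFAND5 fell by 0.38 ± 0.10 and the ubiquitin receptor ADRM1 by 0.33 ± 0.08. PAAF1, which binds the ATPases, was the higher one (0.28 ± 0.10). Without untreated KS replicate 3, and without the 2 arrays, 10 were lower and PAAF1 was not called. POMP, the maturation factor of the core particle, was not called, with -0.15 ± 0.07 in KA and -0.21 ± 0.07 in KS (limma adjusted p = 0.0509 in KS). Nor was the lid subunit SEM1, with 0.03 ± 0.08 in KA and -0.20 ± 0.08 in KS.

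Between untreated lines, 3 of these 14 genes (21.4%) were higher in KA and 5 (35.7%) lower, and 2 and 4 without the 2 KS arrays. The proteasome deubiquitinases differed in direction: UCHL5 was 0.38 ± 0.10 higher in KA and USP14 0.48 ± 0.11 lower. SEM1 (0.27 ± 0.08) was higher, and POMP (-0.31 ± 0.07), AKIRIN2 (-0.33 ± 0.07) and ADRM1 (-0.26 ± 0.08) were lower; ADRM1 was not called without the 2 arrays (limma adjusted p = 0.0844).

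Among 11 measured genes that control NFE2L1 and NFE2L2, 4 (36.4%) were called higher with decitabine in KA (median 0.10) and 0 in either direction in KS by limma (median -0.07), where 1 higher and 3 lower had an unadjusted p under 0.05. SEL1L and SYVN1, parts of the ligase that brings NFE2L1 out of the endoplasmic reticulum for degradation, rose in KA by 0.82 ± 0.09 and 0.45 ± 0.07, and their responses were greater in KA than in KS by 0.89 and 0.64, both called. SEL1L read 7.79, 7.92 and 8.06 in treated KA, against 7.05, 7.02 and 7.23 in untreated KA, and 6.36, 6.26 and 6.52 in treated KS, against 6.43, 6.50 and 6.43 in untreated KS. Only the KA groups stood apart. NFE2L1 itself rose by 0.29 ± 0.08 in KA (limma adjusted p = 0.0274; lost in 6 of 20 alternative settings) and had a change of 0.19 ± 0.08 in KS (limma adjusted p = 0.0956). NFE2L2 was not called in either line, with -0.02 ± 0.08 in KA and -0.18 ± 0.08 in KS. Between untreated lines 5 of the 11 (45.5%) were higher in KA, SEL1L (0.65 ± 0.09) and NFE2L1 (0.27 ± 0.08) among them, and 3 (27.3%) were lower. NGLY1, the enzyme that removes sugar chains from NFE2L1, was lower at -0.49 ± 0.09. So was SYVN1 at -0.30, opposite to SEL1L. Without the 2 KS arrays the counts were 4 and 2, and NFE2L1 was not called (limma adjusted p = 0.091).

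Upstream of the proteasome, the list of VCP, its cofactors and the shuttle factors had 18 measured genes. With decitabine 1 (5.56%) was called higher and 0 lower by limma in KA (median -0.01; 2 lower at an unadjusted p under 0.05), and 1 higher (5.56%) and 8 lower (44.4%) in KS (median -0.16), where 9 were lower without the 2 arrays. The shares called higher lay below those of all genes in both lines. The ligase STUB1 (-0.57 ± 0.09), the shuttle UBQLN4 (-0.45 ± 0.07) and the unfoldase VCP (-0.21 ± 0.07) were among the lower ones in KS. SQSTM1, the autophagy receptor p62, was the higher one in both lines, by 0.73 ± 0.08 in KA and 0.67 ± 0.08 in KS. Between untreated lines 3 (16.7%) were higher in KA and 1 (5.56%) lower, and 2 and 1 without the 2 arrays. Of 8 measured ubiquitin and conjugation genes, 1 (12.5%) was lower and 2 (25.0%) higher in KA, and 3 (37.5%) lower and 1 (12.5%) higher in KS, with 2 lower in KS without the 2 arrays. The share higher in KS is near that of all genes. UBE2S, a partner of the anaphase-promoting complex, rose in KA (0.41 ± 0.06) and fell in KS (-0.19 ± 0.06), a call in KS that was lost without the 2 arrays (limma adjusted p = 0.0777); the difference of the responses was called (0.60).

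Of the 3 inducible subunits, which replace the catalytic ones in immunoproteasomes, 1 was called with decitabine, in KS. PSMB9, which takes the place of PSMB6, read 6.61, 6.62 and 6.69 in treated KS, against 4.36, 4.67 and 5.27 in untreated KS, and rose by 1.87 ± 0.17 (limma adjusted p = 1.04e-05), 3.66-fold. In KA it read 4.63, 4.92 and 4.93 treated, against 4.58, 4.69 and 4.52 untreated (0.23 ± 0.17, limma adjusted p = 0.425). The response in KA was smaller than in KS by a called difference (-1.65). The highest untreated KS array was replicate 3, and the treated and untreated KS arrays stood far apart. PSMB8 had means of at most 3.22, under the background bound, and PSMB10 was not called with decitabine, with -0.13 ± 0.08 in KA and -0.12 ± 0.08 in KS, but was lower in untreated KA than in untreated KS (-0.28 ± 0.08).

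Single markers of other cells were called with decitabine as well. The lists are short, and their calls are not shown to exceed the shares of all genes. The shares of all genes called higher were 9.66% in KA and 14.6% in KS, and those called lower 4.96% and 15.7%. Of 4 monocyte markers, 1 was higher in KA (LYZ by 1.77) and 2 in KS (LYZ by 2.61 and CD68 by 0.52). The mean log2 level of the 4 lay between 6.79 and 6.87 in treated KA, against 6.25 to 6.33 in untreated KA. It lay between 7.10 and 7.22 in treated KS, against 6.09 to 6.77 in untreated KS, where replicate 3 was the highest. CD14 and CSF1R were not called, and none of the 4 is listed at 0, since arrays give no zero. Of the 6 erythroid markers, 0 were called in KA by limma (2 higher and 1 lower at an unadjusted p under 0.05). In KS 4 were higher, HBZ (0.47), EPOR (0.38), TAL1 (0.30) and GATA1 (0.25), with 1 lower besides without the 2 arrays. The calls of TAL1 and GATA1 were lost in 3 and 5 of 20 alternative settings. COL1A1 of the 7 fibroblast and endothelial markers was higher in both lines, EPCAM of the 5 epithelial ones was lower in KS (-0.19, limma adjusted p = 0.0414; not called without the 2 arrays, limma adjusted p = 0.057, and lost in 14 of 20 alternative settings), and the 5 lymphoid ones were not called with decitabine by limma (at an unadjusted p under 0.05, 0 in KA and 1 in KS). Between untreated lines CD3D was higher in KA by 2.28. Their part in the proteasome results was not tested.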

How the data were processed

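The deposited table holds log2 intensities that the authors had already processed; their background, summarization and normalization steps are not given in the sources used, and nothing was rescaled. Of 33297 rows, 19460 carry 1 gene symbol in the platform annotation, 1754 several and 12083 none; 19429 matched a RefSeq gene by Entrez identifier. The brightest row stood for each of 18417 genes. limma 3.58.1 under R 4.3.3 fitted the group means of the 12 arrays (8 residual and 4.71 prior degrees of freedom) with Benjamini-Hochberg adjustment over all genes. The fit was also run on simulated data with independent noise and known changes added to treated KA. That setting is simpler than these data and cannot show that the calls hold here. Alternatives were median centring, quantile normalization, dropping dim genes, averaging rows, a trended robust prior, fitting only the groups compared, the replicate number as a block, leaving out each array, and leaving out the 2 KS arrays. Array values are given for the 6 called genes of largest change in each comparison, the catalytic subunits, PSMD14 and the activators, and otherwise up to 3 called genes per list and direction. Members and lists were chosen with earlier results of these data known. Plots used matplotlib 3.10.9 (Python 3.11.15).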

Additional observations from a re-analysis of the deposited data

Results flagged for a closer look

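PSME3, the nuclear activator of the core particle, was called for the difference of its decitabine responses between the lines. The response in KA minus that in KS was 0.41 ± 0.11 on the log2 scale (limma adjusted p = 0.046). The fall was 0.33 in KA and 0.74 in KS. It was the 1 gene called of the 44 (2.27%), where 4.6% of all genes were called higher and 2.14% lower. Its 3 treated arrays lay below all 3 untreated ones in each line, which does not bear on whether the falls differ. The call was lost in 11 of 19 alternative settings, with limma adjusted p between 0.00522 and 0.105, and without untreated KS replicate 3 the difference was 0.48 (limma adjusted p = 0.0129).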

How the results depend on the processing

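No named gene that was called reversed its direction under the alternatives tried. The median between treated lines changed sign, from -0.03 to 0.03 with 1 array left out at a time. Of 59 named gene comparisons, 47 kept their side of the threshold in all alternatives. Calls kept in all alternatives numbered 3 of 9 for decitabine in KA, 16 of 22 for decitabine in KS, 0 of 1 for the difference of responses, 11 of 16 between untreated lines and 8 of 13 between treated lines. With a trended robust prior, decitabine in KA gave 15 lower and 2 higher genes, the difference of responses 6 and treated lines 7 lower. Dropping dim genes gave 2 higher in KA and 2 for the difference. Fitting only the groups compared gave 7 lower between untreated lines and 1 higher in KS. Quantile normalization moved the median change in KS to -0.12. Leaving out the 2 KS arrays gave 1 higher in KS and 3 for the difference. The causes of these shifts were not tested. Leaving out 1 array at a time gave 7 to 11 lower between untreated lines, 4 to 10 lower in KA, 15 to 21 lower and 1 to 2 higher in KS, 0 to 3 for the difference and 2 to 4 lower between treated lines.

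The replicate number as a block gave 7 lower in KA, 19 in KS and 0 for the difference, where the adjusted p of PSME3 was 0.0825 by limma, and 8 lower between untreated lines. With the block AKIRIN2 and NFE2L1 were not called in KA (limma adjusted p = 0.0755 and 0.0501), nor EPCAM and UBE2S in KS (limma adjusted p = 0.0766 and 0.0584). Same-numbered arrays deviated together at correlations of -0.26 to 0.187, over 0.1 in 2 of 18 pairs. Arrays with different numbers ranged from -0.267 to 0.259. Deviations from a mean of 3 arrays cannot show whether same-numbered arrays were handled together. With 3 arrays a group, changes near the SE cannot be told from 0, and rows under 3.39 carry no measured level.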
